A study of Mus musculus with 6 samples.

Results

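The genes studied here were 9 chemokines and chemokine receptors that steer T cells: the interferon-induced ligands Cxcl9, Cxcl10 and Cxcl11 with their receptor Cxcr3, the ligand and receptor pair Cxcl16 and Cxcr6, the T cell chemokine Ccl5, and the mucosal chemokines Ccl25 and Ccl28. They were chosen by name, as all gene probes that the scanner output assigns to these symbols, and made up 9 of 37325 gene names on the array, with 17 probes. All 9 genes had at least 1 probe well above background and were tested, with 15 of the 17 probes. The RNA came from colon tissue with tumors of C57BL/6 mice, purchased at 6 to 8 weeks of age. All of these mice carried colitis-associated tumors induced by azoxymethane (AOM, 10 μg/g, a carcinogen) and 2% dextran sulfate sodium (DSS). The DSS was given in the drinking water for 5 days and inflames the colon. After tumors had formed, 3 mice were given RG@M-γ-CD orally (30 μg/g, equal to 10 μg/g of regorafenib, a multikinase inhibitor held in mannose-modified γ-cyclodextrin) and 3 were given PBS the same way. The treatment lasted 21 days and was followed by 14 days of observation before the colons were excised, and 1 one-color array was hybridized per mouse. The tissue was whole, so fewer cells of a type and less RNA per cell cannot be told apart.

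Cxcl9, Cxcl10 and Cxcl11 are made by macrophages, dendritic cells, epithelial and stromal cells in response to interferon-γ, and they attract activated T cells and NK cells through the shared receptor Cxcr3. Cxcl16 is made as a membrane-bound protein that can be shed by ADAM10, and its receptor Cxcr6 is carried by memory and tissue-resident T cells, innate lymphoid cells and NKT cells. Ccl5 is released by T cells, NK cells and macrophages and acts through several CC chemokine receptors, Ccr1 and Ccr3 among them. Ccl25, the ligand of Ccr9, is the homing signal of the small intestine and thymus, whereas Ccl28, the ligand of Ccr10 and Ccr3, is secreted by colonic and other mucosal epithelium and draws plasma cells.

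Values are log2 intensities with the array's own 75th percentile subtracted, so each value describes its own probe. Levels of different probes do not compare as amounts of RNA. The summed linear levels given for some marker lists add different probes, weigh the brightest ones most and do not measure cell content. Arrays 5, 6 and 7 are labelled RG@M-γ-CD replicates 1, 2 and 3, and arrays 8, 10 and 11 are labelled PBS replicates 1, 2 and 3. A supplementary heat map of the study places arrays 6, 7 and 8 together and arrays 5, 10 and 11 together without naming conditions. The study describes it as a clustered map of differential genes, so its column order may come from the values of these same arrays. A grouping drawn from likeness of the arrays would by itself raise the share of small p-values and of groups that do not overlap. The differences of the 9 genes and of the gene lists are therefore printed for the labelled groups (RG@M-γ-CD minus PBS) and again for arrays 6, 7 and 8 minus arrays 5, 10 and 11, a grouping in which neither side is called treated. Between 28099 and 31217 probes were well above background on an array, no gene spot was saturated, and precision is limited by 3 arrays per group. All 13 colon epithelial markers were well above background on all 6 arrays, while sucrase-isomaltase (Sis), lactase (Lct), Apoa1 and Apoa4, which mark the small intestine, were so on 0 of 6. The other 4 small intestinal markers read, Apob, Fabp2, Fabp6 and Rbp2, were well above background on all 6 arrays. Row 1 of the slide carried PBS replicate 1 beside the whole RG@M-γ-CD group, and row 2 carried PBS replicates 2 and 3, so effects of the row and of the labels cannot be fully told apart.

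The control regions of the interferon-induced ligands are shown because Cxcl9 and Cxcl10 had the most similar profiles of the ligands in the data. RefSeq promoter sequences (build GRCm38.p6) were at hand for 6 of the 9 genes, and not for Cxcl11, Cxcl16 and Ccl5. The 250 bases before the start of Cxcl10 (chr5:92348890-92349139, minus strand) and of Cxcl9 (chr5:92328080-92328329, minus strand) are printed 5′ to 3′, with capitals for matches to the interferon-stimulated response element, searched as GAAANNGAAA, and to the consensus of NF-κB, on both strands.
Cxcl10: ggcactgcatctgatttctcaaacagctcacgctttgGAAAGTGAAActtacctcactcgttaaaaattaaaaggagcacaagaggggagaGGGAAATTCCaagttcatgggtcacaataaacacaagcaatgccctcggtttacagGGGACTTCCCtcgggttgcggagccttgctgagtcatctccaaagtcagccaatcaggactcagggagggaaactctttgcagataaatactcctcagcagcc
Cxcl9: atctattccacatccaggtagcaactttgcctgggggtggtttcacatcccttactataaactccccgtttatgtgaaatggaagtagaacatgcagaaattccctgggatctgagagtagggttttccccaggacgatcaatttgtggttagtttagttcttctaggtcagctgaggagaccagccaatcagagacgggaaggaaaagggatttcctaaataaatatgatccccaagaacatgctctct
The Cxcl10 window held 1 match to the response element, which begins 213 bases before the start, and 2 matches to the NF-κB consensus, at 159 and 103 bases before it. The Cxcl9 window held no match to either. Matches to the response element were found in 978 of 32851 promoters (2.98%) and to the NF-κB consensus in 1281 (3.90%). The gamma-activated site, searched as TTCNNNGAA on both strands, was found in 2306 promoters (7.02%) and in none of the windows of the 6 genes. These matches describe letters in the window only.

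As labelled, the limma fit over 19090 genes called 0 (0%) at an adjusted p below 0.05, and none of the 9 genes among them (adjusted p = 1 for each). At an unadjusted p below 0.05, limma counted 419 genes, 2.19% of those tested. The methods' t-test, with the adjustment used here, left 0 genes past the adjusted threshold and 381 at an unadjusted p below 0.05. The rule in the study's methods differs: a fold change of at least 2 with a p of at most 0.05, and no adjustment named. The study's results text states other cutoffs for fold change and p beside its count of differential genes. Of the 9 genes, only Ccl5 lay below an unadjusted p of 0.05 in limma, and only Cxcr3 in the methods' t-test. The log2 difference was below 0 in 7 of the 9, where 52.8% of all genes tested were below 0, and its median over the 9 was −0.45, beside −0.012 over all genes. All 3 RG@M-γ-CD arrays lay below all 3 PBS arrays in 1 of the 9, Cxcr3, and in 2.19% of all genes. With arrays 6, 7 and 8 set against arrays 5, 10 and 11, 5 of 19298 genes (0.0259%) passed the adjusted threshold and 16.5% lay below an unadjusted p of 0.05. The groups did not overlap in 25.5% of genes under this grouping. None of the 9 genes passed the adjusted threshold, lay below an unadjusted p of 0.05 or had groups apart, 4 of them were below 0, and their median was 0.06, beside −0.116 over all genes. Both groupings use the same 6 arrays.

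**Figure D1:**
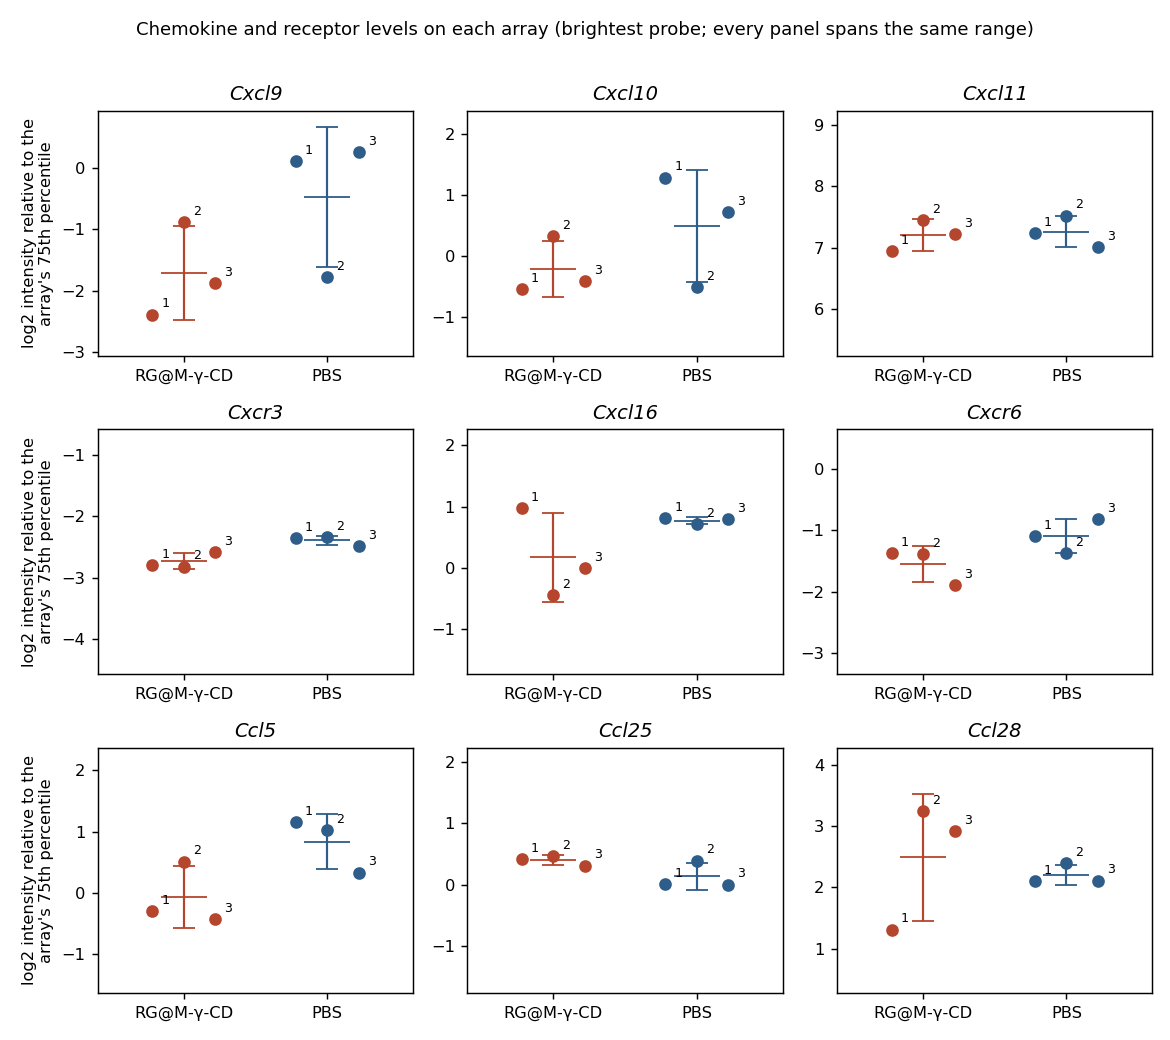
Level of each gene on its brightest tested probe, as log2 intensity relative to the 75th percentile of the array, for the 3 RG@M-γ-CD and 3 PBS arrays. Points are arrays with their replicate number, lines and bars are the mean and SD, and each panel spans the same range of log2 units. The points of Cxcr3 do not overlap between the groups, and those of the other 8 genes do.

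Cxcl9 was measured by 1 probe (A_51_P461665, chr5:92752191-92752250, minus strand, mm9). It stood at −2.39, −0.88 and −1.88 on RG@M-γ-CD replicates 1, 2 and 3 and at 0.11, −1.78 and 0.26 on PBS replicates 1, 2 and 3. PBS replicates 1 and 3 were above all 3 RG@M-γ-CD arrays, while PBS replicate 2 lay among them. The group means were −1.72 ± 0.77 and −0.47 ± 1.14 (SD, n = 3 each), a log2 difference of −1.25 (95% confidence interval −2.85 to 0.35) or 2.38-fold lower. The difference was −1.91 without PBS replicate 2 and −0.88 without PBS replicate 3 (adjusted p of at least 0.731 in limma whichever array was left out), and 0.42 under the grouping of the heat map.

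Cxcl10 followed a similar order with smaller steps. Its probe for the mRNA (A_55_P2016462, chr5:92775781-92775840, minus strand, mm9) gave −0.54, 0.32 and −0.41 on RG@M-γ-CD replicates 1, 2 and 3 and 1.28, −0.51 and 0.72 on PBS replicates 1, 2 and 3. Again PBS replicates 1 and 3 were high, PBS replicate 2 was as low as RG@M-γ-CD replicates 1 and 3, and RG@M-γ-CD replicate 2 lay between. As labelled, its log2 difference was −0.71 (95% confidence interval −1.92 to 0.51), −0.31 without PBS replicate 1, −1.21 without PBS replicate 2 and 0.51 under the grouping of the heat map. With the slide row as a block, which leaves PBS replicate 1 as the only PBS array compared, it was −1.49 for Cxcl10 and −1.83 for Cxcl9 (adjusted p = 0.997 for both in limma). The second Cxcl10 probe, drawn from a cDNA clone, was well above background on 0 of 6 arrays and was not tested.

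Over the 6 arrays, Cxcl9 and Cxcl10 had a Pearson correlation of 0.95 (exact permutation p = 0.0222, adjusted p = 0.40 over the 36 pairs of the 9 genes) and a Spearman correlation of 0.89 (exact permutation p = 0.0333, adjusted p = 0.60). Without the 2 arrays farthest from the median of Cxcl9, r was 0.93. The most similar profiles to Cxcl9 among 19078 genes were those of Igtp, an interferon-inducible GTPase (r = 0.992), Stat2, a transducer of type I interferon (r = 0.992), and Cep43, a centrosomal protein (r = 0.984). Closest to Cxcl10 were Gbp2, a guanylate-binding protein induced by interferon-γ (r = 0.993), and the probes of 2 lincRNA regions (r = 0.984 and r = 0.982). These likenesses are descriptions over 6 arrays, without a test.

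Cxcl11 is the gene named for the third Cxcr3 ligand, but RefSeq lists it as a transcribed pseudogene in its reference strain C57BL/6J. The mice are given as C57BL/6, with no substrain stated. Its brighter probe (A_55_P2160387, chr5:92788567-92788626, minus strand, mm9) gave 6.94, 7.45 and 7.22 on RG@M-γ-CD replicates 1, 2 and 3 and 7.24, 7.52 and 7.01 on PBS replicates 1, 2 and 3. The second probe (A_55_P2044413, chr5:92788640-92788699) gave 0.97, 2.11 and 1.07, and 1.52, 1.23 and 1.14, on the same arrays. The groups overlapped on both probes, with log2 differences of −0.06 (95% confidence interval −0.58 to 0.47) and 0.09. Neither probe followed the steps of Cxcl9 and Cxcl10: on the brighter one PBS replicate 2 was the highest array, and on the second RG@M-γ-CD replicate 2. The sequences of these probes are shown because part of each also occurs in probes for other genes. Bases 14 to 43 of the brighter probe and 22 to 51 of the second are printed 5′ to 3′, with capitals for the run shared with a probe of another gene, Elk1 and Rn4.5s respectively.
A_55_P2160387: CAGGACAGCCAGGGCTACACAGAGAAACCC
A_55_P2044413: ttgaaAGGCAGAGGCAGGAGGATCtcttga
The brighter probe shared a run of at least 16 bases with 16 probes of other genes, and a run of 31 bases with those of Elk1, Glrx2 and Med16. Averaged over the 6 arrays, the probe of Elk1 gave 8.37, that of Glrx2 8.20 and that of Med16 7.48, and the brighter Cxcl11 probe itself 7.23. All 16 probes ranged from −3.13 to 8.39 with a median of 2.02. RG@M-γ-CD replicates 1, 2 and 3 and then PBS replicates 1, 2 and 3 gave 8.01, 8.63, 8.35, 8.40, 8.62 and 8.22 for Elk1. In the same order they gave 7.91, 8.33, 8.19, 8.20, 8.46 and 8.08 for Glrx2 and 7.09, 7.75, 7.39, 7.35, 7.80 and 7.46 for Med16. On these probes and the brighter Cxcl11 probe, RG@M-γ-CD replicate 1 was lowest, and RG@M-γ-CD replicate 2 and PBS replicate 2 were highest. The other sharing probes did not all follow this order. The second probe shared a run with 2 probes of other genes, among them 19 bases with that of Rn4.5s, a small non-coding RNA. Of the 17 probes, 14 shared no such run. The profiles closest to the brighter probe were those of Pirb, an inhibitory receptor of myeloid cells (r = 0.983), Smco1 (r = 0.981) and Fam73a (r = 0.981). How much of the signal of the Cxcl11 probes comes from other transcripts was not tested.

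Cxcr3, the receptor of these ligands on activated T cells, had 1 probe (A_51_P319022, chrX:98926920-98926979, minus strand, mm9). It gave −2.80, −2.82 and −2.58 on RG@M-γ-CD replicates 1, 2 and 3 and −2.35, −2.34 and −2.48 on PBS replicates 1, 2 and 3. All PBS arrays lay above all RG@M-γ-CD arrays, within a span of 0.48 log2 units over the 6 arrays. The log2 difference was −0.34 (95% confidence interval −0.72 to 0.04, unadjusted p = 0.0609 and adjusted p = 1 in limma), between −0.42 and −0.30 with any single array left out, and −0.17 with normexp background correction. It was −0.04 under the grouping of the heat map. The closest profiles were those of 4921515G04Rik (r = 0.982), Myo18b (r = 0.977), an unconventional myosin, and AK051515 (r = 0.972).

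**Figure D2:**
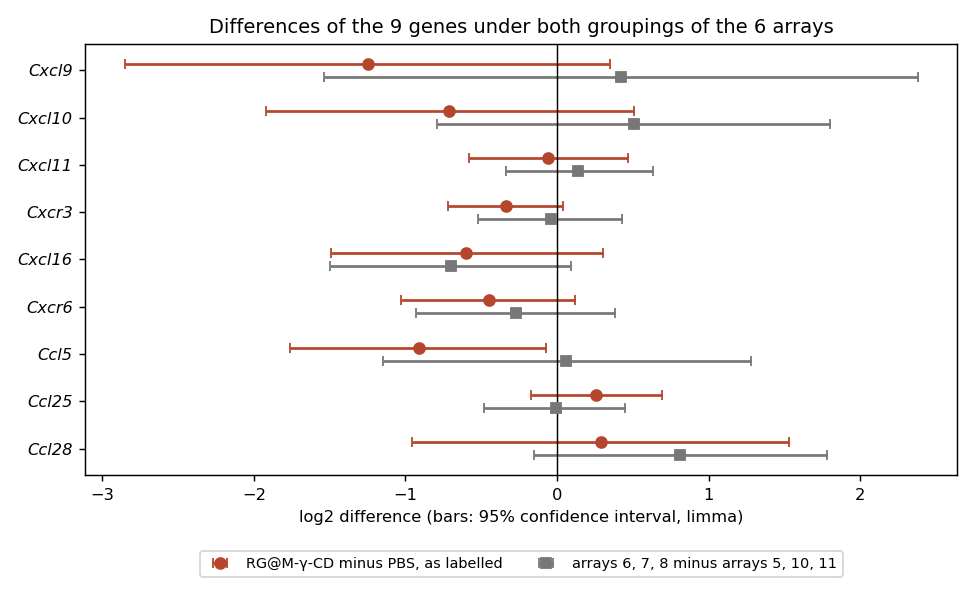
Log2 difference of each of the 9 genes with its 95% confidence interval from limma, as labelled (circles) and for arrays 6, 7 and 8 minus arrays 5, 10 and 11 (squares). As labelled, the interval of Ccl5 (−1.76 to −0.07) lies below 0 and the other 8 contain 0, and under the second grouping all 9 contain 0.

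Genes that interferon-γ induces were read beside the ligands. Of 19 such targets, all 19 tested had a log2 difference below 0 as labelled, with a median of −0.49, and 0 passed the adjusted threshold. The differences ran from −0.93 for Gbp6 to −0.03 for Gbp5, both guanylate-binding proteins, and the immunity-related GTPase Irgm1 was the only one below an unadjusted p of 0.05 (−0.55, unadjusted p = 0.0484, adjusted p = 1 in limma). Under the grouping of the heat map Irgm1 differed by 0.02 and 3 of the 19 were below 0, with a median of 0.31 and 0 past the adjusted threshold. The mean level of the 19 was 0.96, 1.70 and 0.95 on RG@M-γ-CD replicates 1, 2 and 3 and 2.07, 1.07 and 1.86 on PBS replicates 1, 2 and 3. PBS replicates 1 and 3 were the highest arrays, RG@M-γ-CD replicate 2 came next, and the other 3 arrays were the lowest, as for Cxcl9 and Cxcl10.

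**Figure D3:**
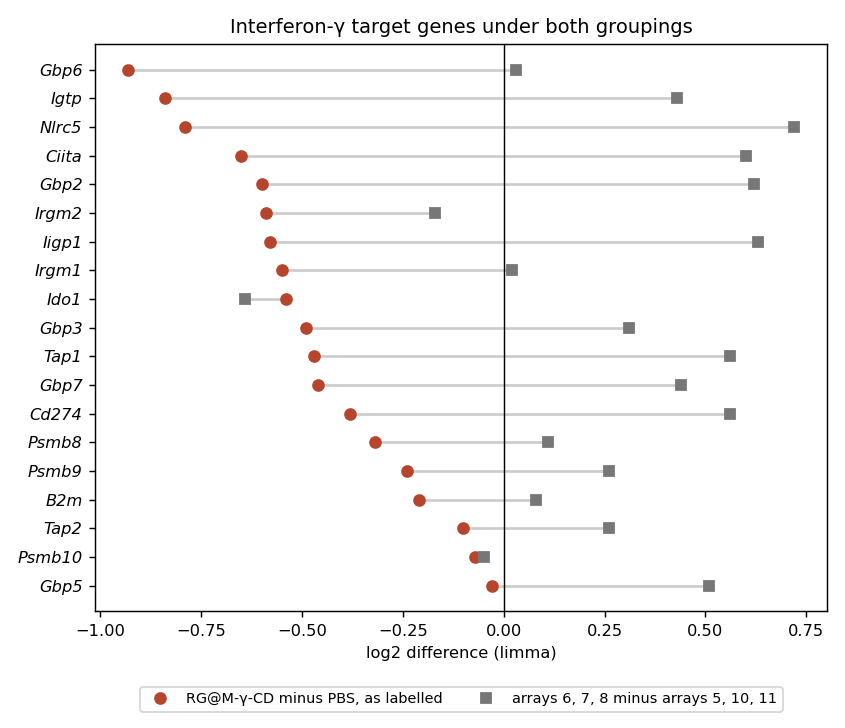
Log2 difference of the 19 interferon-γ target genes from limma, as labelled (circles) and for arrays 6, 7 and 8 minus arrays 5, 10 and 11 (squares), with a line joining both values of a gene. All 19 circles lie below 0, and 3 of the 19 squares do.

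In the pathway above these targets, 15 of 16 tested genes of interferon signaling were below 0 as labelled, with a median of −0.17 and 0 past the adjusted threshold. Socs1, the feedback inhibitor that interferon-γ itself induces, was lowest at −0.83 (unadjusted p = 0.0265, adjusted p = 1 in limma). It stood at −0.19, −0.50 and −0.45 on the RG@M-γ-CD arrays and at 0.97, −0.11 and 0.48 on the PBS arrays, so its groups did not overlap. All RG@M-γ-CD arrays lay below all PBS arrays in 2 of the 16 genes, Socs1 and Irf9, and in 2.19% of all genes tested. Irf9 differed by −0.33 as labelled and by −0.03 under the grouping of the heat map. Irf1, a transcription factor induced by interferon-γ, differed by −0.20, with overlapping groups and PBS replicate 1 as its highest array. Socs1 differed by −0.05 and Irf1 by 0.10 under the grouping of the heat map. The cytokine gene Ifng was the exception at 0.58 (0.94 under the grouping of the heat map), on a probe that was well above background on 5 of the 6 arrays and stood at −4.16, −3.80 and −4.03 on RG@M-γ-CD replicates 1, 2 and 3 and at −3.62, −5.98 and −4.13 on PBS replicates 1, 2 and 3. The positive sign of Ifng rests on PBS replicate 2, since PBS replicates 1 and 3 lay above or among the RG@M-γ-CD arrays. PBS replicate 2 was also the lowest PBS array of Cxcl9 and Cxcl10, but the Ifng probe is dim. Under that grouping 10 of the 16 were below 0, with a median of −0.06.

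Ccl5, which activated T cells, NK cells and macrophages release, had 1 probe (A_52_P638459, chr11:83339296-83339355, minus strand, mm9). It gave −0.30, 0.51 and −0.43 on RG@M-γ-CD replicates 1, 2 and 3 and 1.16, 1.02 and 0.33 on PBS replicates 1, 2 and 3. RG@M-γ-CD replicate 2 lay above PBS replicate 3, and the other values were apart. The means were −0.07 ± 0.51 and 0.84 ± 0.44 (SD, n = 3 each), a log2 difference of −0.91 or 1.88-fold lower (95% confidence interval −1.76 to −0.07, unadjusted p = 0.0322 and adjusted p = 1 in limma). Ccl5 ranked 257 among the 19090 genes by p, as labelled. The difference stayed between −1.21 and −0.73 whichever array was left out and was 0.06 under the grouping of the heat map. Closest in profile to Ccl5 were the probe of a lincRNA region (r = 0.959) and Birc3, an inhibitor of apoptosis induced by NF-κB (r = 0.955).

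Of the receptors of Ccl5, Ccr1 was well above background on 1 array and Ccr3 on 0, and neither was tested. Among the 7 partner receptors tested, 4 were below 0 as labelled, with a median of −0.13 and 0 past the adjusted threshold, and under the grouping of the heat map 3 of 6 were below 0, with a median of 0.14. The largest value as labelled was 1.07 (1.77 under the grouping of the heat map) for Ackr4, a scavenging receptor of Ccl25, at −3.31, −0.27 and −0.14 on the RG@M-γ-CD arrays and −2.27, −2.51 and −2.16 on the PBS arrays. RG@M-γ-CD replicates 2 and 3 stood high and RG@M-γ-CD replicate 1 was the lowest of all 6.

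Cxcl16, the membrane-bound ligand of Cxcr6, had 2 tested probes. The brighter one (A_52_P99888, chr11:70267780-70267839, minus strand, mm9) gave 0.97, −0.45 and 0.00 on RG@M-γ-CD replicates 1, 2 and 3 and 0.81, 0.71 and 0.79 on PBS replicates 1, 2 and 3. The PBS arrays varied by an SD of only 0.05, RG@M-γ-CD replicates 2 and 3 were below them, and RG@M-γ-CD replicate 1 was above them. The log2 difference was −0.60 (95% confidence interval −1.49 to 0.30), and the second probe gave −0.66. Leaving out RG@M-γ-CD replicate 1 gave −0.99 (adjusted p = 0.0956 in limma, with 202 genes past the adjusted threshold), and leaving out RG@M-γ-CD replicate 2 gave −0.29. Under the grouping of the heat map it was −0.70 (unadjusted p = 0.0653, adjusted p = 0.31 in limma).

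Cxcr6, its receptor on memory and resident T cells, showed another order. The brighter probe (A_55_P1962209, chr9:123720719-123720778, plus strand, mm9) gave −1.37, −1.39 and −1.89 on RG@M-γ-CD replicates 1, 2 and 3 and −1.09, −1.37 and −0.81 on PBS replicates 1, 2 and 3. PBS replicate 2 was level with RG@M-γ-CD replicates 1 and 2, and RG@M-γ-CD replicate 3 was the lowest. The log2 difference was −0.45 (95% confidence interval −1.03 to 0.12) on this probe and −0.56 on the second one (unadjusted p = 0.0336, adjusted p = 1 in limma over all probes), on which all PBS arrays were above all RG@M-γ-CD arrays. With single arrays left out the brighter probe ranged from −0.60, when PBS replicate 2 was dropped, to −0.28, when RG@M-γ-CD replicate 3 was dropped, and it gave −0.27 under the grouping of the heat map. Closest in profile to Cxcr6 were Wdr41 (r = 0.991), a probe without a gene name (r = 0.985) and Casp4, an inflammatory caspase (r = 0.985). The sheddase gene Adam10 differed by −0.18, Adam17 by −0.15 and Dpp4, a peptidase that trims the Cxcr3 ligands, by 0.15, with 0 of the 3 past the adjusted threshold and a median of −0.15. All 3 were below 0 under the grouping of the heat map, with a median of −0.35.

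The epithelial chemokine Ccl28 ran opposite to Cxcl16. Its brighter probe (A_55_P2896652, placed on the unanchored sequence chr13_random in mm9) gave 1.31, 3.24 and 2.92 on RG@M-γ-CD replicates 1, 2 and 3 and 2.10, 2.39 and 2.11 on PBS replicates 1, 2 and 3. RG@M-γ-CD replicates 2 and 3 were the highest arrays and RG@M-γ-CD replicate 1 the lowest, with the PBS arrays between, and the second probe had the same 3 arrays at its ends (−1.53, 0.79 and 0.13 on the RG@M-γ-CD arrays). As labelled, Ccl28 differed by 0.29 on the log2 scale (95% confidence interval −0.96 to 1.53), by 0.88 without RG@M-γ-CD replicate 1 (adjusted p = 0.128 in limma), −0.09 without RG@M-γ-CD replicate 2 and 0.07 without RG@M-γ-CD replicate 3. Under the grouping of the heat map it was 0.81 (unadjusted p = 0.0765, adjusted p = 0.316 in limma). Over the 6 arrays the orders of Cxcl16 and Ccl28 were exact opposites: the Spearman correlation was −1 and the Pearson correlation −0.91, each with an exact permutation p of 0.00278, the smallest that 6 arrays allow in a two-sided test, and an adjusted p of 0.10 over the 36 pairs. Without the 2 arrays farthest from the median of Cxcl16, r was −0.99. No pair of the 9 genes passed an adjusted p of 0.05.

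The profiles closest to Cxcl16 over the 6 arrays were those of Hacd2, an enzyme of fatty acid elongation (r = 0.997), Jak2, a kinase of cytokine receptors (r = 0.997), and Card14, an activator of NF-κB in epithelium (r = 0.995). Closest to Ccl28 were Prkcd, the protein kinase C δ (r = 0.997), Gm15401 (r = 0.997) and Tfcp2l1, an epithelial transcription factor (r = 0.996).

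Ccl25, the small intestinal ligand of Ccr9, varied least of the 9 genes on their brightest probes, by 0.45 log2 units over the 6 arrays. The probe (A_51_P161265, chr8:4359916-4359975, plus strand, mm9) gave 0.42, 0.46 and 0.31 on RG@M-γ-CD replicates 1, 2 and 3 and 0.01, 0.39 and 0.00 on PBS replicates 1, 2 and 3. PBS replicate 2 lay among the RG@M-γ-CD arrays. As labelled, Ccl25 differed by 0.26 on the log2 scale (95% confidence interval −0.17 to 0.69), and it was −0.01 under the grouping of the heat map and −0.06 with the mean of the tested probes. Of its other tested probes, A_52_P326713 differed by 0.00 and A_55_P2027852, for a non-coding transcript of the gene, by −0.45, and the fourth probe was well above background on 0 of 6 arrays. The receptors Ccr9 and Ccr10 differed by −0.21 and 0.36 as labelled, with overlapping groups, and under the grouping of the heat map Ccr9 differed by −0.32 and Ccr10 did not pass the filter on dim probes. The closest profiles to Ccl25 were those of Sdc4, a cell surface proteoglycan (r = 0.987), a lincRNA region (r = 0.986) and Tmem218 (r = 0.981).

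**Figure D4:**
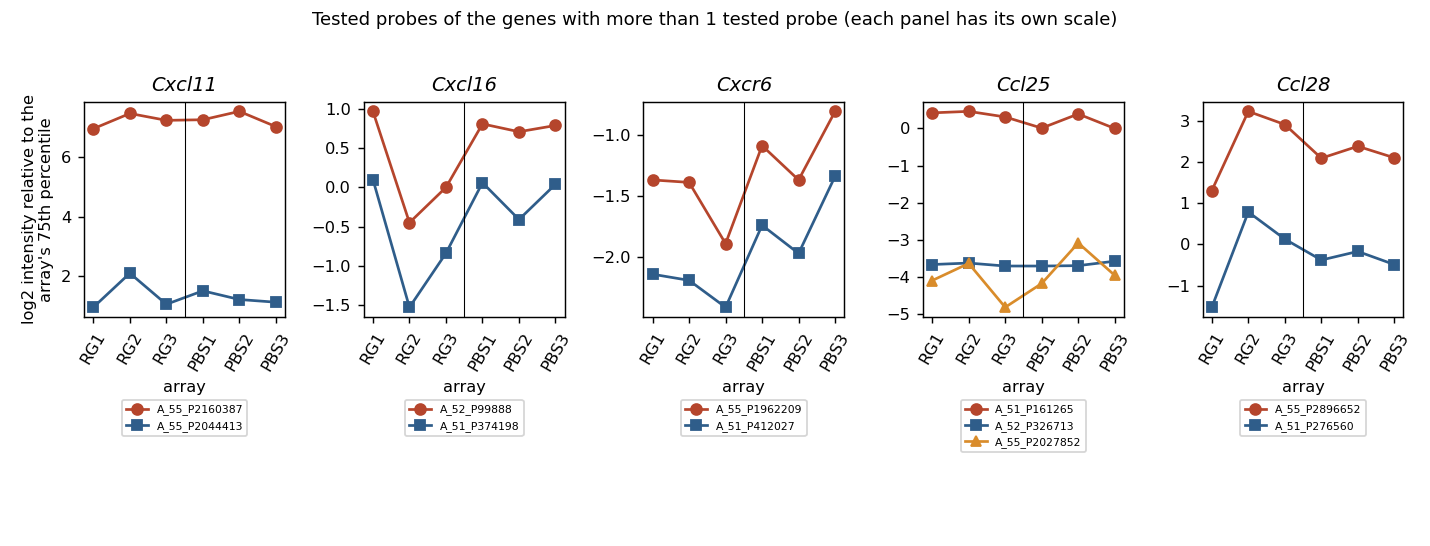
Values of all tested probes of the 5 genes with more than 1 tested probe, as log2 intensity relative to the 75th percentile of the array, in the order RG@M-γ-CD replicates 1 to 3 and PBS replicates 1 to 3. The probes of Cxcl16, Cxcr6 and Ccl28 are high and low on mostly the same arrays, while those of Cxcl11 and Ccl25 differ in level and in order.

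Cell type markers were read beside these values, and their part in the results was not tested. Of the 11 T cell markers tested, all 11 were below 0 as labelled (median −0.63) and 10 under the grouping of the heat map (median −0.49), with 0 past the adjusted threshold under either. As labelled, Cd5 (−0.82, unadjusted p = 0.0412) and Cd3g (−0.64, unadjusted p = 0.0385) lay below an unadjusted p of 0.05 (adjusted p = 1 for each in limma), and the difference nearest to 0 was −0.15 for Cd247. The summed linear level of the T cell markers ran from 7.03 to 16.6 on the RG@M-γ-CD arrays and from 12.4 to 14.2 on the PBS arrays, and Cd8a was well above background on 1 array. Their mean log2 level was −0.43, −1.24 and −1.15 on RG@M-γ-CD replicates 1, 2 and 3 and −0.35, −0.23 and −0.58 on PBS replicates 1, 2 and 3. RG@M-γ-CD replicates 2 and 3 were the lowest arrays, as for Cxcl16, and RG@M-γ-CD replicate 1 lay among the PBS arrays, whereas for Cxcl16 it was the highest.

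The neutrophil and smooth muscle markers separated the same arrays more widely. Of 5 neutrophil markers tested, 4 were below 0 as labelled (median −1.75, lowest S100a8 at −2.52, highest Csf3r at 0.06) and their mean log2 level was 2.60, −0.15 and 0.40 on the RG@M-γ-CD arrays and 2.49, 1.69 and 2.57 on the PBS arrays. All 6 smooth muscle markers were above 0 (median 0.90, from 0.78 for Cnn1 to 1.05 for Myh11), with mean log2 levels of 3.07, 5.78 and 6.14 on the RG@M-γ-CD arrays and 4.24, 3.86 and 4.18 on the PBS arrays. Under the grouping of the heat map the median was 1.71 for the smooth muscle markers, with all 6 above 0, and −1.73 for the neutrophil markers, with 4 of 5 below 0. All 6 smooth muscle markers then lay below an unadjusted p of 0.05 in limma (adjusted p = 0.297 for each). So did 16.5% of all genes tested under this grouping, which may itself come from likeness of these arrays. By mean log2 level, RG@M-γ-CD replicate 1 was the lowest array for smooth muscle and the highest for neutrophils. By the same measure RG@M-γ-CD replicates 2 and 3 were the reverse, as for Ccl28 and Cxcl16 respectively. The summed linear level of the smooth muscle markers ran from 97.6 to 769 on the RG@M-γ-CD arrays and from 188 to 220 on the PBS arrays. That of the neutrophil markers ran from 46.7 to 98.9 and from 59.1 to 103. Csf3r had the highest mean level of the neutrophil markers in both groups and so weighs heavily in their sum. It did not follow the order of their mean log2 level, with 5.02, 6.25 and 5.30 on RG@M-γ-CD replicates 1, 2 and 3. No marker of either list passed the adjusted threshold under either grouping.

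**Figure D5:**
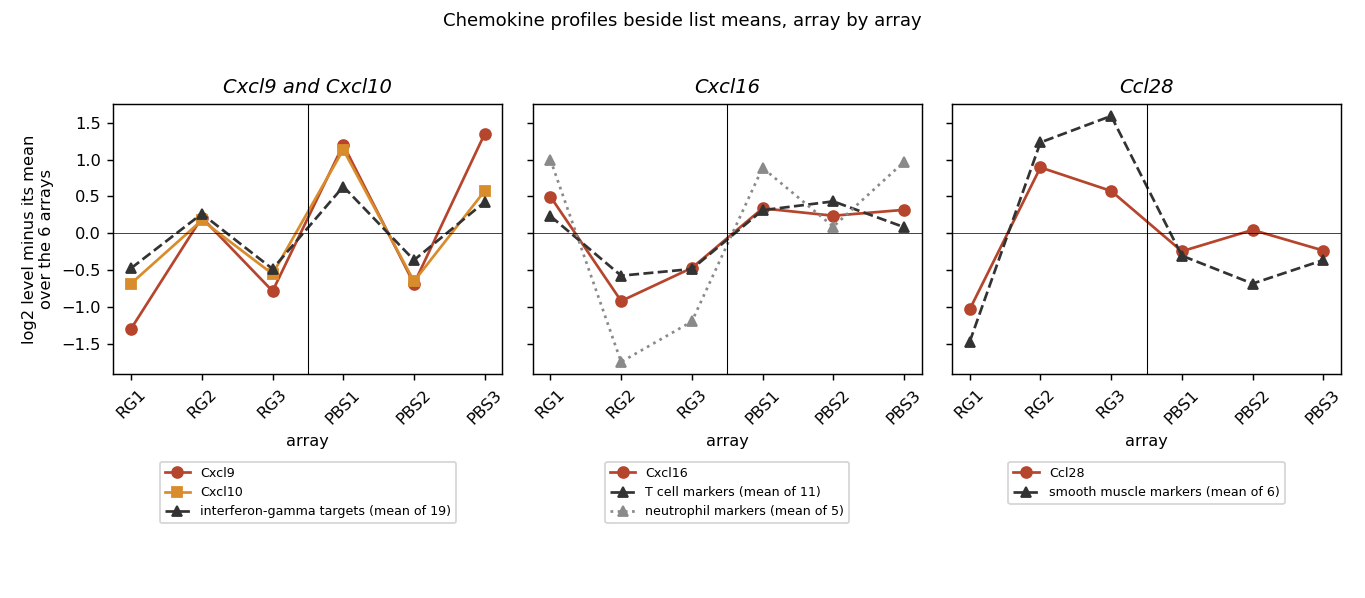
Log2 level of Cxcl9 and Cxcl10, Cxcl16 and Ccl28 on each array, minus its mean over the 6 arrays, beside the mean of the tested genes of a list treated the same way (RG, RG@M-γ-CD; the number is the replicate). Cxcl9 and Cxcl10 are highest with the interferon-γ targets on PBS replicates 1 and 3, Cxcl16 is lowest with the T cell and neutrophil markers on RG@M-γ-CD replicates 2 and 3, and Ccl28 is highest with the smooth muscle markers on these arrays.

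The other leukocyte lists held differences on both sides of 0. Of 7 cytotoxic lymphocyte genes tested, 5 were below 0 as labelled (median −0.35), from −0.87 for Il2rb, the shared receptor chain of interleukins 2 and 15 (unadjusted p = 0.0382, adjusted p = 1 in limma), to 0.17 for perforin (Prf1), and Tbx21, Eomes, Fasl and Ncr1 were well above background on 0 of 6 arrays. Of 7 genes of gut homing and retention, 5 were below 0 (median −0.11, with the highest value, 0.21, for Itgb1). Of 11 B and plasma cell markers, 9 were below 0 (median −0.27, from −0.63 for Cd79b to 0.49 for Jchain). Of 12 macrophage and dendritic cell markers, 11 were below 0 (median −0.50), from −0.80 for Fcgr1 to 0.35 for Mertk, and Flt3, the growth factor receptor of dendritic cells, was at −0.68 with groups apart (unadjusted p = 0.0277, adjusted p = 1 in limma). Under the grouping of the heat map 4 of the 7 cytotoxic lymphocyte genes were below 0 (median −0.09), 3 of the 7 genes of gut homing and retention (median 0.10), 2 of the 11 B and plasma cell markers (median 0.47) and 8 of the 12 macrophage and dendritic cell markers (median −0.55). The B and plasma cell and gut homing medians thus turned sign, and Flt3 differed by 0.06. None of these 4 lists held a gene past the adjusted threshold under either grouping.

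Of the 13 colon epithelial markers, 6 were below 0 as labelled, with a median of 0.01, from −0.34 for Muc2 to 0.33 for Car1. Of 5 endothelial markers, all 5 were above 0, with a median of 0.34, from 0.14 for Pecam1 to 0.45 for Tie1. Of 4 small intestinal markers tested, 2 were below 0, with a median of 0.16, from −0.10 for Fabp2 to 0.97 for Rbp2, a retinol-binding protein, which stood at −2.58, −2.33 and −2.45 on the RG@M-γ-CD arrays and −3.48, −3.34 and −3.43 on the PBS arrays (unadjusted p = 0.000482, adjusted p = 1 in limma). Under the grouping of the heat map 9 of the 13 colon epithelial markers were below 0 (median −0.17), as were 0 of the 5 endothelial markers (median 0.34) and 0 of the 4 small intestinal markers (median 0.28), and Rbp2 differed by 0.36.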

How the data were processed

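RNA from colon tissue with tumors of 6 mice (3 RG@M-γ-CD, 3 PBS, grouped by the labels) was hybridized to one-color Agilent arrays. The authors deposited spot intensities of Feature Extraction 10.7.1.1, corrected for background only, plus log2 values for each probe in a common table, whose normalization is not given in the sources used here (median 4.83 on every array), used as an alternative. Control spots and 790 outlier spots were left out, spots of a probe were averaged, and the 75th percentile of 56605 gene probes was subtracted from the log2 intensities. Gene symbols came from RefSeq by accession for 32994 probes (58.3%) and otherwise from the scanner output. A probe was tested where either group had it well above background on each of its 3 arrays, and the brightest such probe stood for its gene, with limma 3.58.1 in R 4.3.3 and Benjamini-Hochberg adjustment over all genes. All 9 genes were named with every probe, and from 14 lists of 145 genes those with the highest and lowest change and those at an unadjusted p below 0.05, plus Ifng, Irf1, Ccr3, Ccr9 and Ccr10; some genes that this rule names are not reported here. Likeness was the Pearson correlation over 6 arrays, and the closest 3 genes were named. Pairs were tested with scipy 1.17.1. With 3 against 3 arrays the smallest two-sided exact permutation p is 0.10. The fit was tested on simulated data. The alternatives were quantile normalization, normexp correction (offset 50), the authors' table, keeping outlier spots, averaging the probes of each gene, omitting the filter or requiring all 6 arrays, a replicate block, the methods' test, the grouping of the heat map, the slide row as a block, and leaving out each array. The genes and lists were chosen with earlier results of these data known.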

Additional observations from a re-analysis of the deposited data

How the results depend on the processing

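No alternative brought any of the 9 genes past the adjusted threshold. The grouping of the heat map gave 5 genes past it in all, left 4 of the 9 genes below 0, and turned Cxcl9 to 0.42, Cxcl10 to 0.51, Cxcl11 to 0.14, Ccl5 to 0.06 and Ccl25 to −0.01. The mean of a gene's probes turned Cxcl11 to 0.01 and Ccl25 to −0.06. Leaving out each array in turn gave 0 to 202 genes past the adjusted threshold (202 without RG@M-γ-CD replicate 1) and 6 to 8 of the 9 genes below 0, with Cxcl11 between −0.18 and 0.07 and Ccl28 between −0.09 and 0.88. The causes were not tested. The other alternatives left the signs as they were. With a replicate block, limma called 0 genes at the adjusted threshold and 464 at an unadjusted p below 0.05. Samples of the same number correlated at −0.25, −0.23 and 0.14 in their deviations. The labels state no pairing, and these correlations cannot settle whether there was one. Dim probes, such as that of Ifng, which was not well above background on every array, limit what can be read of the receptors and cytokines.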
